A study of Mus musculus with 14 samples.

Results

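The 38 genes described here act in the S phase of the cell cycle, when the cell copies its DNA. They were given as a fixed list of symbols and taken from the gene names of the RNA matrices, where all 38 were found among 32285 genes. By role, 10 genes were grouped under licensing of origins (Orc1, Cdc6, Cdt1, Mcm2 to Mcm7 and Mcm10), although Mcm10 helps to activate the helicase once loaded. Then 5 activate the helicase or protect the fork (Cdc45, Gins1, Gins2, Clspn, Tipin) and 9 synthesize and join DNA (Pola1, Prim1, Pold1, Pole, Pcna, Rfc2, Rfc4, Fen1, Lig1). Another 4 supply nucleotides (Rrm1, Rrm2, Tyms, Dut), 5 deal with chromatin and histone supply (Chaf1a, Chaf1b, Uhrf1, Hells, Slbp), 4 belong to S-phase entry (Ccne1, Ccne2, E2f1, E2f8) and 1 to strand exchange (Rad51ap1).

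White nodules traced to 7 cKO mice were profiled as single cells, as 1 sample per mouse with 1 RNA and 1 V(D)J library. By the study's methods all 7 mice carried Eif3e fl/fl alleles with Cγ1Cre on a C57BL/6J background, so that Cre is expressed from the locus of an immunoglobulin constant region. The protein of Eif3e belongs to eIF3, a complex that initiates translation. The study lists a Rosa26-YFP reporter for mice 29, 31, 32 and 34 and none for mice 27, 30 and 33. B cell receptors (BCRs) were sequenced in nodules of the liver (mouse 27, 12 mo old), lung (mouse 29, 12 mo), spleen (mouse 31, 13 mo), thymus (mouse 33, 16 mo) and lung and thymus (mouse 34, 9 mo). T cell receptors (TCRs) were sequenced in nodules of the liver (mouse 30, 14 mo) and spleen (mouse 32, 12 mo). Per the study, the sample of mouse 27 was a secondary tumor from its liver nodule, grown after transfer into a Rag2-/- animal, a host without B and T cells of its own, and that of mouse 34 combined lung and thymus. No Cre-negative or healthy nodule was analysed here, and erythrocytes were lysed and dead cells removed before capture.

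A round of DNA replication starts with the loading of the Mcm2 to Mcm7 ring onto origins by the origin recognition complex, Cdc6 and Cdt1. In S phase Cdc45 and the GINS complex turn the ring into a moving helicase, polymerases copy both strands, the clamp Pcna holds them on DNA, and histones and nucleotides are supplied to match. Many of these genes are transcribed together at the end of G1 under E2F factors, which is why their transcripts are used to mark cells in S phase, while lymphocytes at rest hold few of them.

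In each nodule 1 receptor dominated. Clone cells carried the heavy or beta chain that was commonest in their nodule, or the light or alpha chain commonest beside it. There were 8579 B clone cells in the 5 BCR nodules and 6975 T clone cells in the 2 TCR nodules. Bystander T cells, named other T in the plots, were T cells outside the clone: 11112 without a BCR call in the BCR nodules and 895 with another TCR in the TCR nodules. Erythroid-like cells without a receptor call reached 50 cells only in mouse 29 (85 cells) and mouse 32 (3812 cells). Neutrophil-like cells of mouse 29 (1942 cells) and mouse 30 (608 cells) were added as a type that does not divide when mature. They do not serve as a floor for T or B cells. All 9 B markers were detected in the B clones, at a summed 1695 to 3645 CPM (the usual scaling of UMIs to 1 common total, here over the summed cells), and all 9 T markers in the bystander T cells of BCR nodules, at 1524 to 3327 CPM. T markers summed to 10.6 to 67.2 CPM in the B clones, and B markers to 71.2 to 216 CPM in the bystander T cells beside them.

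Libraries held 19264039 to 123456962 UMIs in all, at medians of 1364 to 5319 UMIs per cell. The 21 pairs of libraries shared 78 to 278 cell barcodes. Eif3e itself, the targeted gene, was read at 169 to 243 CPM in B clones and 117 to 171 CPM in the bystander T cells beside them. It was read at 146 and 142 CPM in the T clones of mice 30 and 32, and at 183 and 162 CPM in their bystander T cells. UMIs per gene do not show whether the floxed part was removed. By the study's flow cytometry and immunoblots, B and CD4+ T cells of primary and secondary tumors lacked YFP and had eIF3e protein at normal levels. The study proposes that the lymphocytes that became malignant still had eIF3e. The labels name a 5′ kit for the V(D)J libraries and the methods a 3′ kit for RNA, so the end of the transcript that was counted is not settled.

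To compare populations of unequal depth, each cell with at least 1000 UMIs was thinned to 1000 UMIs, and a cell with at least 3 UMIs of the 38 genes was counted as an S-phase cell. The share is one of cells above a level of these transcripts, not of cells measured to copy DNA. Among B clone cells the S-phase share was 41.1% in mouse 27 (95% Clopper-Pearson interval 38.8 to 43.4), 21.4% in mouse 29 (17.0 to 26.2), 35.4% in mouse 31 (33.9 to 36.9), 27.6% in mouse 33 (24.96 to 30.4) and 33.9% in mouse 34 (31.4 to 36.4). Bystander T cells of the same nodules had 13.0%, 5.43%, 7.08%, 12.0% and 8.92%, mouse by mouse. The lowest B clone thus lay above the highest bystander T cells, and in every mouse the clone had the higher share. The means were 31.9% ± 7.58 (SD, n = 5) and 9.28% ± 3.20 (SD, n = 5), and the difference within a mouse was 22.6 points ± 6.37 (SD, n = 5). These intervals, like all counting intervals and limits given here, cover counting error only.

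Over all cells counted, T clones had lower shares than B clones. Their cells were also less deep, with medians of 1992 and 3805 UMIs in the 2 T clones against 9367 to 13763 in B clones. The S-phase share was 6.64% in mouse 30 (5.59 to 7.82) and 9.86% in mouse 32 (9.04 to 10.7), against 8.24% and 6.43% in the bystander T cells of the same 2 nodules. The clone was therefore lower than the bystander T cells in mouse 30 and higher in mouse 32. Of the T clone of mouse 32, 286 cells (5.88%) lay in erythroid-like clusters, where 49.0% were S-phase cells, and 94 in unnamed clusters, where 34.04% were. With clone cells of T-like clusters alone the shares were 6.59% and 6.86%, a mean of 6.72% ± 0.188 (SD, n = 2). The erythroid marker list summed to 2273 CPM over the whole T clone of mouse 32 and to 252 CPM in its T-like clusters, the neutrophil list to 1848 and 162 CPM, and the hematopoietic progenitor list to 455 and 34.7 CPM. The part of these cells in the share of the clone was not tested beyond leaving out their clusters.

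Erythroid-like cells gave both the highest share and, neutrophil-like cells aside, the lowest. In mouse 32 the share was 59.6% (58.0 to 61.2), above every B clone. In mouse 29 it was 2.82% (0.34 to 9.81; 2 of 71 cells). The background was 0.798% (0.437 to 1.33) in neutrophil-like cells of mouse 29 and 2.29% (1.10 to 4.17) in those of mouse 30, at medians of 1961.5 and 1378 UMIs per cell. With 2 mice so far apart, the mean over erythroid-like cells describes neither nodule.

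**Figure D1:**
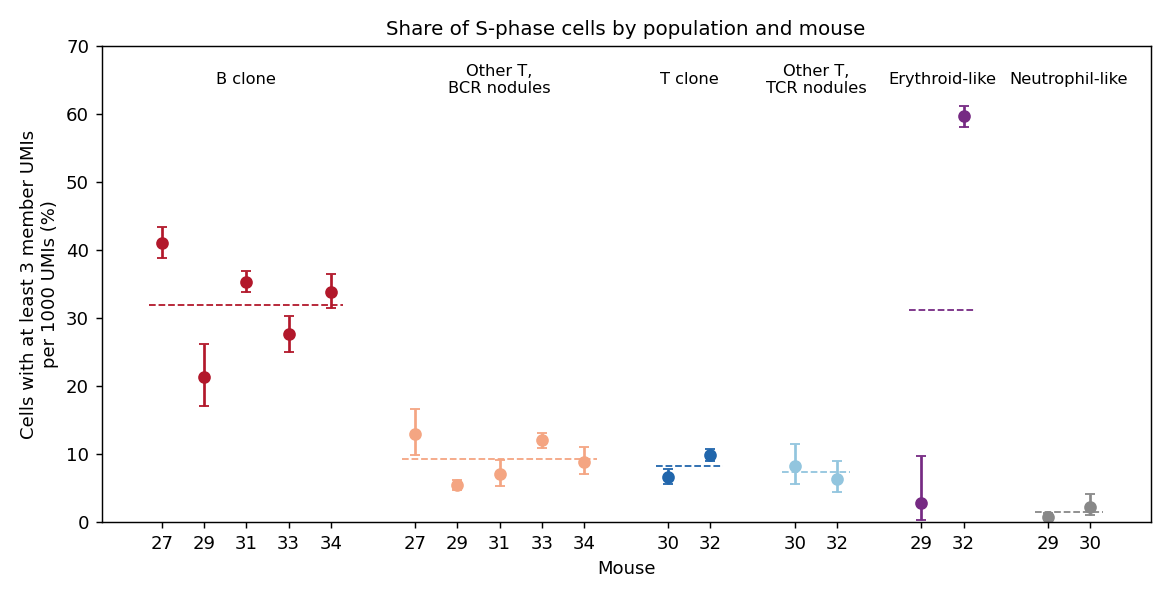
Share of S-phase cells (percent of cells with at least 3 UMIs of the 38 genes after thinning to 1000 UMIs) in each population and mouse. Points are single mice, bars are 95% Clopper-Pearson intervals and dashed lines are means over mice. The 5 B clones lie between 21.4% and 41.1%, all above the bystander T cells, and the erythroid-like cells of mouse 32 reach 59.6%.

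The rule leaves out cells under 1000 UMIs, which for bystander T cells of mouse 29 left 3352 of 5121 cells and for its erythroid-like cells 71 of 85. Without thinning, at 3 member UMIs per 1000, the mean shares were 24.7% in B clones, 3.15% in T clones, and 5.66% and 2.70% in the bystander T cells of BCR and TCR nodules. Between 17.0% and 30.7% of the B clone cells had 2 or 3 UMIs, next to the limit, so the share is a range on a scale and not a sharp class.

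The summed level of the 38 genes gave the same order. It was 2842, 1820, 3061, 2028 and 2406 CPM in the B clones of mice 27, 29, 31, 33 and 34, and 1739, 857, 1140, 1765 and 1706 CPM in their bystander T cells. Every B clone was above every group of bystander T cells, by 1.15 times within mouse 33 and 2.68 times within mouse 31 at the extremes. Levels were 1103 and 1430 CPM in the T clones of mice 30 and 32 and 1273 and 908 CPM in their bystander T cells. Erythroid-like cells of mouse 32 had 3998 CPM and those of mouse 29 had 567 CPM. A lower level in a sum of cells can come from fewer cells that express the genes or from less RNA in each of them, and the sums do not tell these apart.

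Cells with at least 3 UMIs of 20 G2 and mitosis genes (such as Mki67, Top2a and Cdk1) were counted in the same way. In B clones 14.9% (mouse 29) to 24.96% (mouse 31) of cells passed for the S-phase list alone, 6.502% (mouse 29) to 19.0% (mouse 27) for both lists, and 3.02% (mouse 31) to 16.5% (mouse 34) for the G2 and mitosis list alone. The clones differed in this balance. In mouse 31 the summed S-phase level was 2.39 times that of the G2 and mitosis list, and in mouse 34 it was 0.896 times. In mouse 32 the erythroid-like cells had 37.0% for the S-phase list alone, 22.7% for both and 13.0% for G2 and mitosis alone. In T clones both lists passed together in 1.15% (mouse 30) and 1.63% (mouse 32) of cells.

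**Figure D2:**
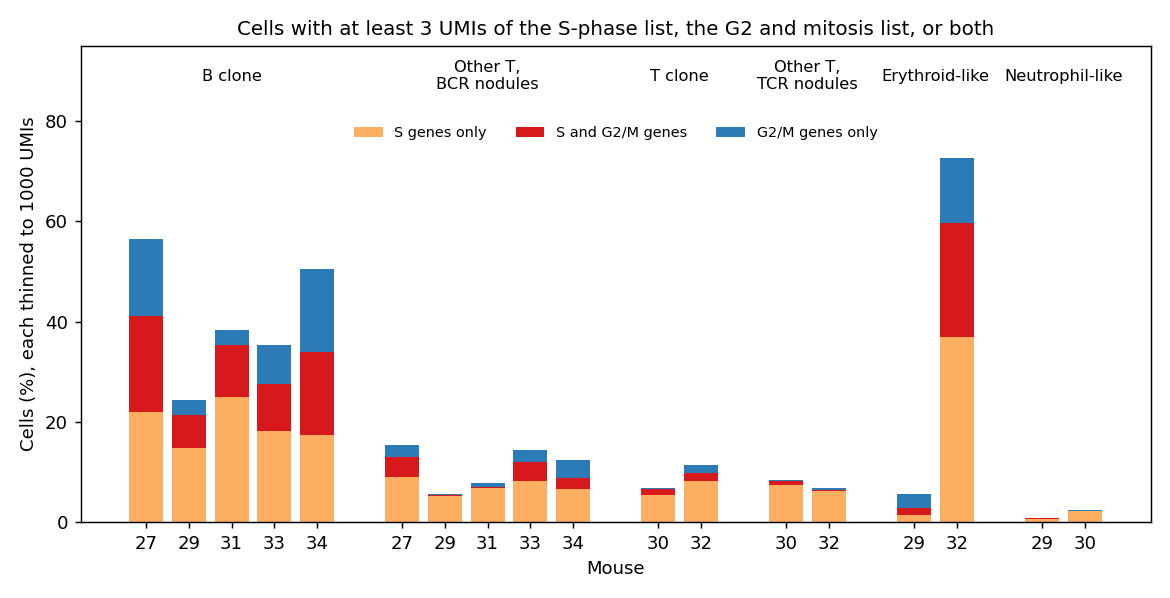
Cells (percent) with at least 3 UMIs of the S-phase list only, of both lists, or of the G2 and mitosis list only, after thinning to 1000 UMIs, by population and mouse. The stacks reach highest in the erythroid-like cells of mouse 32, and the B clones of mice 27 and 34 have the largest parts for G2 and mitosis alone among the B clones (15.5% and 16.5%).

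In B clones, cells with more RNA more often passed the limit even after thinning. The median of UMIs was 10124 in S-phase cells and 8859 in the other cells of the B clone of mouse 27, and S-phase cells also had the higher median in the other 4 B clones. B clone cells were deeper than bystander T cells, with medians of 9367 to 13763 UMIs against 1189 to 3513.5. The gap was therefore also read within classes of UMIs per cell. Between 2000 and 4000 UMIs the B clones of mice 27, 31, 33 and 34 had 27.4%, 24.6%, 22.7% and 12.5% against 11.01%, 4.89%, 5.85% and 3.15% in bystander T cells. Each clone was higher, with only 22 and 24 clone cells in mice 33 and 34. In mouse 34 the intervals overlapped (2.66 to 32.4 in the clone and 1.58 to 5.57 in bystander T cells). Between 4000 and 8000 UMIs the B clones of mice 31, 33 and 34 had 16.9%, 21.1% and 19.9% against 8.57%, 7.41% and 8.97%, while mouse 27 had 33.3% on both sides (45 bystander cells) and mouse 29 had 8.89% against 9.09%. In the class of 8000 to 16000 UMIs, which had enough bystander cells only in mice 33 and 34, the clones had 20.04% and 33.7% and the bystander T cells 30.7% and 35.4%. From 16000 UMIs on, these 2 mice had 39.4% and 50.3% in the clones and 57.2% and 64.0% in the bystander T cells. In these 2 mice the clones were thus not the higher side above 8000 UMIs, where mouse 34 had only 48 and 25 bystander cells, and the classes are wide and do not match depth exactly. In T clones and bystander T cells the share did not rise with depth throughout, as in the T clone of mouse 32, with 9.95%, 7.69% and 6.07% in the 3 classes from 1000 to 8000 UMIs. The share of deep cells was not held equal in the comparisons of single genes that follow, and its part in them was not tested.

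A cluster of cycling T cells held 166 of the 415 S-phase cells among bystander T cells of mouse 33 and 22 of 74 in mouse 34. In mouse 33, 45.4% of 366 cells of that cluster were S-phase cells, and in mouse 34, 56.4% of 39. Cells that held B and T markers together, with 2 or more UMIs of each, can be pairs of cells. They made 9.15% and 7.13% of the bystander T cells of these mice and 8.95% and 7.56% of their B clones. Without them the mean shares were 31.5% ± 8.07 (SD, n = 5) in B clones and 9.00% ± 3.07 (SD, n = 5) in bystander T cells. The main T clusters of these mice had between 5.43% and 8.37%. Leaving the cycling cluster out, as a first rule for naming clusters did, gave a mean of 7.55% ± 2.02 (SD, n = 5).

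**Figure D3:**
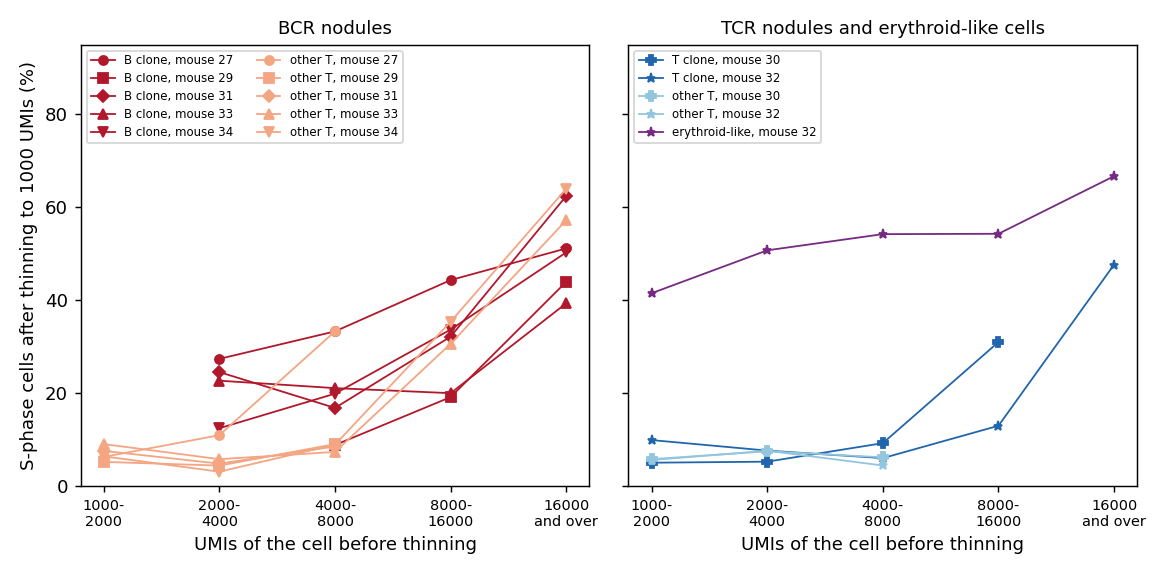
Share of S-phase cells after thinning (percent) against the UMIs of the cell before thinning, in BCR nodules (left) and in TCR nodules with erythroid-like cells (right). Each line is 1 population of 1 mouse. In the B clones the deepest class has the highest share, B clones and bystander T cells of mice 33 and 34 cross above 8000 UMIs, and erythroid-like cells of mouse 32 go from 41.5% to 66.7%.

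B-like cells with a BCR call outside the clone numbered 124, and those without a call could not be placed. Among B-like cells with another BCR, S-phase cells were 1 of 29 in mouse 29, 3 of 36 in mouse 31, 8 of 27 in mouse 33 and 3 of 24 in mouse 34. In mouse 33 this share (29.6%, 13.8 to 50.2) overlapped with that of the clone, and in mouse 31 (8.33%, 1.75 to 22.5) it lay below it. B-like cells without a BCR call, which can belong to the clone, had 35.9%, 20.4%, 40.4%, 17.8% and 18.0% in mice 27, 29, 31, 33 and 34.

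Single genes were tested on UMIs summed over the cells of a population in a mouse, with edgeR's quasi-likelihood test, the mouse as a block and Benjamini-Hochberg adjustment over all genes tested. Between B clones and bystander T cells of the 5 BCR nodules, 27 of the 38 genes were higher in the clones at an adjusted p under 0.05 and 0 were lower. Over all 14510 genes tested, 15.7% were called higher and 32.7% in either direction. The median log2 fold change was 1.18 over the 38 genes and 0.06 over all genes. Without the mouse as a block, 17 of the 38 were called, with the share over all genes not given for that setting. In this comparison the clone and the B lineage cannot be told apart, and the clone cells were the deeper ones. Under a stricter view with no model, the 5 B clones and the 5 groups of bystander T cells did not overlap for 14 of the 38 genes, all higher in the clones, against 5.81% of all genes higher and 10.9% lower.

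**Figure D4:**
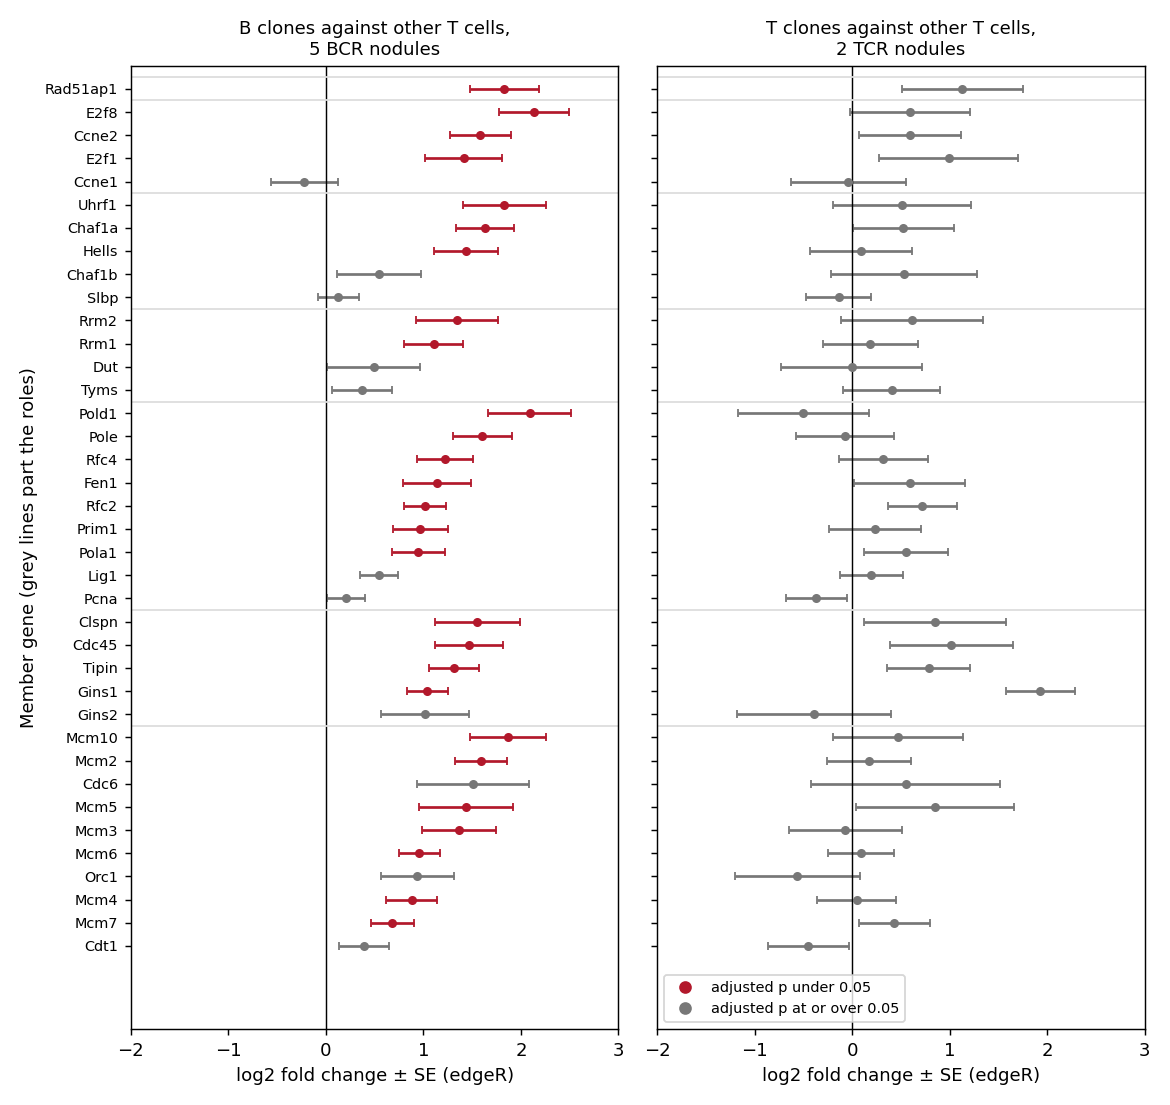
Log2 fold change ± SE of each of the 38 genes from edgeR, in B clones against bystander T cells of 5 BCR nodules (left) and in T clones against bystander T cells of 2 TCR nodules (right). The SE is derived from the test statistic. Red marks an adjusted p under 0.05, and grey lines part the roles. On the left 27 genes are red and all lie to the right of 0, and on the right none is red and Gins1 lies farthest out at 1.93.

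Of the 10 genes grouped under licensing 7 rose in B clones, namely Mcm2 to Mcm7 and Mcm10. Mcm2, a subunit of the helicase ring, was read at 55.0, 31.04, 40.5, 23.8 and 31.1 CPM in the B clones of mice 27, 29, 31, 33 and 34 and at 9.90, 11.2, 11.1, 14.7 and 14.5 CPM in their bystander T cells. The lowest clone stood above the highest bystander value, and the log2 fold change was 1.59 ± 0.263 (SE, adjusted p = 0.00295, edgeR). Mcm10, which helps to activate the loaded helicase, was at 42.3, 20.5, 27.1, 18.8 and 21.3 CPM in the clones and at 9.08, 2.59, 5.85, 10.5 and 11.9 CPM in bystander T cells, again without overlap (log2 fold change 1.87 ± 0.389, adjusted p = 0.00837). Mcm5 was close to the limit. Its levels were 52.5, 22.3, 37.8, 28.96 and 37.4 CPM in clones and 24.8, 3.17, 5.85, 22.9 and 31.6 CPM in bystander T cells, where the groups overlap (1.44 ± 0.483, adjusted p = 0.0499). The 3 genes that load the ring, Orc1, Cdc6 and Cdt1, did not pass, at log2 fold changes of 0.94, 1.51 and 0.39.

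Among the 5 genes of helicase activation and fork stability, Cdc45, Gins1, Clspn and Tipin rose and Gins2 did not pass (1.02 ± 0.453, adjusted p = 0.116). Tipin, a partner of Timeless in the complex that steadies the fork, was at 151, 65.7, 115, 94.3 and 126 CPM in clones and 61.9, 22.3, 32.8, 61.0 and 72.5 CPM in bystander T cells. Each clone was above the bystander cells of its mouse, with overlap between mice (1.31 ± 0.259, adjusted p = 0.00659). Gins1, a subunit of the GINS complex, was at 15.2, 12.1, 11.1, 15.8 and 15.9 CPM against 5.78, 7.34, 5.85, 8.13 and 9.57 CPM, without overlap (1.04 ± 0.209, adjusted p = 0.00721). Clspn encodes claspin, which passes the signal of a stalled fork to the checkpoint kinase. It was at 104, 37.4, 103, 53.3 and 57.3 CPM in clones and 42.9, 7.77, 13.5, 45.0 and 33.4 CPM in bystander T cells, where only the clone of mouse 29 lay inside the bystander range (1.55 ± 0.435, adjusted p = 0.0264).

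Of 9 genes of DNA synthesis 7 rose, and the clamp Pcna and the ligase Lig1 did not pass. Pole, the catalytic subunit of the leading strand polymerase, was at 36.7, 24.9, 26.8, 35.2 and 33.2 CPM in clones and 19.0, 5.32, 6.44, 19.3 and 11.6 CPM in bystander T cells. Pold1, its counterpart on the lagging strand, was at 17.3, 18.5, 14.1, 11.9 and 31.8 CPM against 6.60, 2.30, 2.34, 6.98 and 6.09 CPM. Neither gene overlapped between the groups (Pole 1.61 ± 0.301, adjusted p = 0.00527; Pold1 2.09 ± 0.425, adjusted p = 0.00755). Pcna was read at 245, 174, 240, 145 and 184 CPM in clones and 226, 123, 181, 175 and 218 CPM in bystander T cells. The ranges overlap widely, and in mice 33 and 34 the bystander cells had the higher level (0.21 ± 0.195, adjusted p = 0.445).

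Nucleotide supply was split. The 2 subunits of ribonucleotide reductase, which makes deoxynucleotides, rose, and the thymidylate synthase Tyms and the dUTPase Dut did not pass. Rrm1 was at 192, 88.5, 290, 183 and 172 CPM in clones and 102, 40.3, 70.8, 148 and 108 CPM in bystander T cells (1.11 ± 0.304, adjusted p = 0.0247). Rrm2 was at 57.6, 40.3, 126, 99.2 and 78.1 CPM against 37.1, 10.6, 28.7, 49.9 and 53.1 CPM (1.34 ± 0.419, adjusted p = 0.0388). For both genes each clone exceeded the bystander cells of its mouse, and only the clone of mouse 29 fell inside the bystander range.

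Chaf1a, Uhrf1 and Hells of the chromatin group rose, and Chaf1b and Slbp did not pass. Chaf1a, the large subunit of the histone chaperone CAF-1, was at 40.5, 16.7, 27.6, 26.4 and 24.7 CPM in clones and 10.7, 4.75, 6.44, 15.5 and 10.7 CPM in bystander T cells, without overlap (1.63 ± 0.295, adjusted p = 0.00445). Hells, a chromatin remodeler linked to DNA methylation, was at 130, 143, 166, 177 and 125 CPM against 75.1, 32.5, 42.7, 94.9 and 67.3 CPM, again without overlap (1.44 ± 0.324, adjusted p = 0.0116). Uhrf1, which brings the maintenance methyltransferase Dnmt1 to new DNA, was at 69.8, 44.6, 46.9, 41.4 and 46.1 CPM against 18.2, 5.90, 8.20, 32.4 and 21.5 CPM (1.83 ± 0.424, adjusted p = 0.0129). The groups did not overlap for Uhrf1 either. Slbp, which binds the stem-loop of histone transcripts, was at 168, 139, 227, 73.3 and 106 CPM in clones and 158, 195, 144, 100 and 85.3 CPM in bystander T cells. The clone was the lower side in mice 29 and 33 (0.13 ± 0.212, adjusted p = 0.671).

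S-phase entry held the largest rise and the only negative value. E2f8, an E2F factor that represses E2F targets later in the cycle, was at 57.2, 19.0, 47.8, 28.6 and 46.4 CPM in clones and 11.6, 3.45, 7.03, 14.3 and 13.3 CPM in bystander T cells, without overlap (2.13 ± 0.357, adjusted p = 0.00311). Ccne2, cyclin E2, was at 33.1, 20.3, 47.5, 17.8 and 20.5 CPM against 13.2, 6.47, 7.61, 12.0 and 7.83 CPM, also without overlap (1.58 ± 0.312, adjusted p = 0.00652). Its paralog Ccne1 was at 15.2, 16.2, 39.5, 17.0 and 9.08 CPM in clones and 18.2, 18.4, 35.7, 24.3 and 16.2 CPM in bystander T cells. The clone was lower in 4 of 5 mice, and the difference did not pass (log2 fold change -0.22 ± 0.341, adjusted p = 0.649). E2f1, an activating E2F factor, was at 9.63, 3.59, 6.42, 12.9 and 13.6 CPM against 4.95, 1.15, 0.585, 6.70 and 8.12 CPM (1.41 ± 0.391, adjusted p = 0.0254). In the bystander T cells of mice 27, 29 and 31 its level rests on few UMIs, in mouse 31 on fewer than 3. Rad51ap1, which acts in strand exchange, was at 53.0, 12.8, 21.3, 22.8 and 30.2 CPM in clones and 9.08, 2.59, 6.44, 11.8 and 12.2 CPM in bystander T cells, without overlap (1.83 ± 0.353, adjusted p = 0.00592).

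Because many of these genes rose together in B clones, their promoters were searched for letters that E2F factors are known to bind. RefSeq promoters of GRCm38.p6 were found for 31 of the 38 genes, and none was at hand for Mcm4, Gins1, Gins2, Tipin, Pole, Rfc2 and Ccne2. TTCCCGC or TTGGCGC, on either strand, occurred within 250 bases upstream of the start in 12 of the 31 genes (38.7%), and in 6.45% of 27025 genes with a promoter. Of the 40 other replication genes below 10 of 32 held one (31.2%), and of the G2 and mitosis genes 3 of 17 (17.6%). CCAAT, on either strand, which can share the letters TTGG with TTGGCGC, was in 61.3% of the 31 genes, 88.2% of the G2 and mitosis genes and 37.5% of all genes. These are matches of letters and not sites measured in these cells. The 120 bases upstream of 4 genes that rose in B clones are shown to let the letters be seen in place, with the E2F letters in capitals, 5′ to 3′ on the strand of the gene. They lie at chr1:128359706-128359825 (Mcm6, minus strand), chr7:48881597-48881716 (E2f8, minus strand), chr19:38930870-38930989 (Hells, plus strand) and chr17:56303217-56303336 (Uhrf1, plus strand, 1 of 2 listed promoters).
Mcm6: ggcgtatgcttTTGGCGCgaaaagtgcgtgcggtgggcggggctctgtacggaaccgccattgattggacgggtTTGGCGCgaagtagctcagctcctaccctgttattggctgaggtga
E2f8: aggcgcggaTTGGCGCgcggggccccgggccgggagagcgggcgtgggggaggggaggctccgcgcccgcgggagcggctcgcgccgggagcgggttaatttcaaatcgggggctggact
Hells: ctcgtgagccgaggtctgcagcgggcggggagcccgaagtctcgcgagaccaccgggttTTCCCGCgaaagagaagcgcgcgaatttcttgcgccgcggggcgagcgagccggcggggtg
Uhrf1: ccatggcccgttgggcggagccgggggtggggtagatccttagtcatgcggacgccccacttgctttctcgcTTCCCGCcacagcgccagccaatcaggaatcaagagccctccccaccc

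Across B clone cells the genes differed in how closely they went with the rest of the list. Each gene was read in cells with at least 3 thinned UMIs of the other 37 genes and in cells with none of them, with the cells of the 5 clones pooled, so that differences between mice enter the ratio as well. The ratio of the 2 levels had a median of 5.32 over the 38 genes and was lowest for Cdt1 (1.46), Pold1 (1.64) and Rfc2 (2.27). It was highest for Cdc6 (21.2, from 166 UMIs against 6), Rrm2 (17.1) and Rad51ap1 (11.7). Cdc6 thus went with the rest of the list although its level did not pass the test between clones and bystander T cells. Slbp and Pcna together made 14.0% of the UMIs of the list in B clones (10.8% to 17.2%), 24.2% in bystander T cells of the same nodules (15.6% to 37.1%) and 52.4% in neutrophil-like cells. These 2 genes weigh more where the list is low, and without Pcna, Tyms, Rrm2 and Slbp the mean S-phase share fell to 26.3% in B clones and 5.27% in the bystander T cells.

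**Figure D5:**
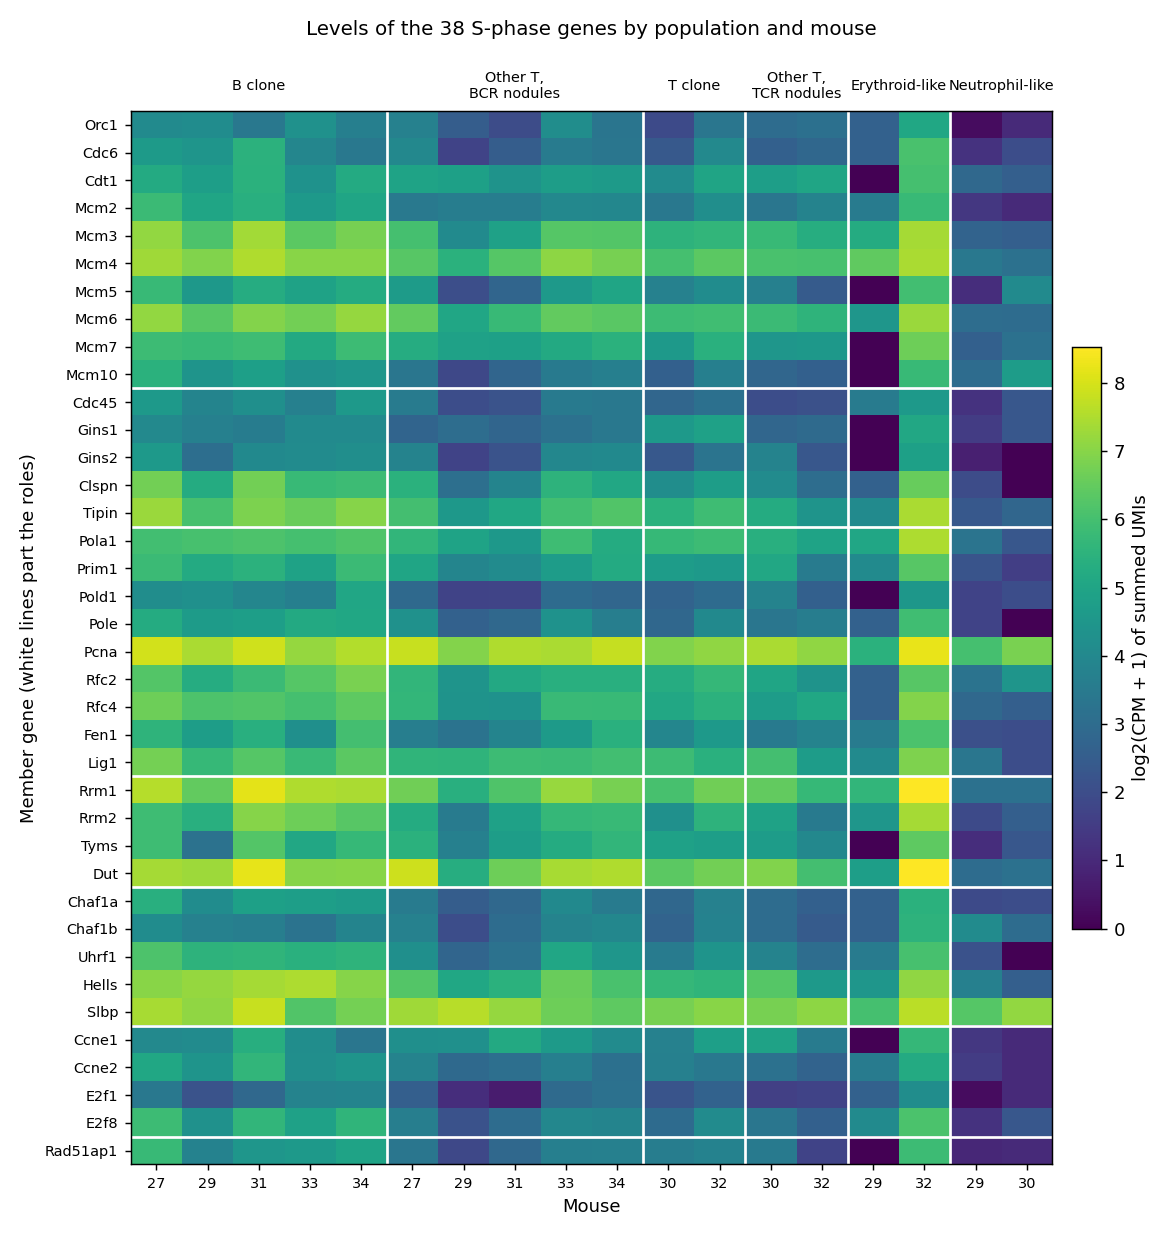
Levels of the 38 genes, as log2(CPM + 1) of summed UMIs, by population and mouse. White lines part the roles and the populations. Pcna and Slbp are bright in almost every column, Gins1 is brighter in both T clones than in the B clones, and 10 genes are at 0 in the erythroid-like cells of mouse 29.

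Between T clones and bystander T cells of the 2 TCR nodules, 0 of the 38 genes passed in edgeR, where 0.0207% of all genes did (3 of 14510). At an unadjusted p under 0.05 there was 1 gene, Gins1, and DESeq2 called 1, also Gins1. The median log2 fold change was 0.42 over the 38 genes and 0.11 over all genes. It was 0.89 without mouse 30, -0.24 without mouse 32, and -0.13 with clone cells of T-like clusters alone, so its sign rests on mouse 32 and on clone cells outside T-like clusters. Leaving out either mouse gave no call, and with 1 nodule the spread is borrowed from the other groups.

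Gins1 (ENSMUSG00000027454) was the exception to this pattern. It was read at 23.6 CPM (128 UMIs) and 28.8 CPM (799 UMIs) in the T clones of mice 30 and 32, and at 6.11 CPM (6 UMIs) and 6.76 CPM (12 UMIs) in their bystander T cells. Both clones were above both groups of bystander cells, and within T-like clusters alone the clones had 23.7 and 28.9 CPM. The log2 fold change of 1.93 ± 0.356 did not pass in edgeR (SE, adjusted p = 0.130) and passed in DESeq2 (adjusted p = 0.0110). The level was also above all 5 B clones (11.1 to 15.9 CPM). Gins1 did not follow the rest of the list in T clones, where cells with at least 3 UMIs of the other genes had 28.7 CPM and cells with none had 24.2 CPM, a ratio of 1.19. In B clones that ratio was 11.6 (61 UMIs against 4). In the thinned cells Gins1 was detected in 1.35% and 2.66% of T clone cells.

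The other genes named in the T clones moved less than their errors allow to be called. Rrm2 was at 18.3 and 44.8 CPM in the T clones of mice 30 and 32 and at 29.5 and 10.1 CPM in bystander T cells, so the 2 mice point in opposite directions (0.62 ± 0.727, adjusted p = 1.00, edgeR). Within T-like clusters Rrm2 was at 16.8 and 15.7 CPM. Clspn was at 17.0 and 25.9 CPM against 16.3 and 7.32 CPM, Mcm5 at 12.5 and 16.6 CPM against 12.2 and 4.50 CPM, and E2f1 at 3.69 and 5.38 CPM against 2.04 and 2.25 CPM. For these 3 genes the larger gap was in mouse 32, but E2f1 rested on few UMIs in the bystander T cells of both mice. Pcna was lower in both clones, at 120 and 136 CPM against 173 and 138 CPM (-0.37 ± 0.310), and Slbp was nearly level, at 108 and 128 CPM against 109 and 135 CPM. Orc1, Pold1 and Cdt1 had the lowest log2 fold changes (-0.56, -0.50 and -0.45), and Rad51ap1 and Cdc45 the highest after Gins1 (1.13 and 1.02).

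Whether the clone effect differed between TCR and BCR nodules was tested in the same fit. In edgeR 0 of the 38 genes passed, where 1.79% of all genes did (1.54% higher and 0.255% lower). There were 3 genes at an unadjusted p under 0.05, and DESeq2 called 1, Pold1. The median difference of the log2 fold changes was -0.73 over the 38 genes, toward the smaller effect in TCR nodules, and 0.13 over all genes. Pold1 had the most negative difference (-2.59 ± 0.807, adjusted p = 0.171), and Gins1 was on the other side (0.89 ± 0.410, adjusted p = 0.351).

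Set directly against B clones, T clones had lower levels of most of the list. In edgeR 3 of the 38 genes were called, all lower in T clones, where 2.05% of all genes were called lower, 4.69% higher and 6.74% in either direction. At an unadjusted p under 0.05 there were 29, for which no share over all genes is given. The 3 were Hells (49.97 and 46.4 CPM against 125 to 177 CPM, log2 fold change -1.93 ± 0.336, adjusted p = 0.0221), Uhrf1 (10.7 and 20.2 CPM against 41.4 to 69.8 CPM, -1.94 ± 0.384, adjusted p = 0.0311) and Rfc4, a subunit of the clamp loader (33.7 and 43.8 CPM against 63.8 to 99.5 CPM, -1.28 ± 0.272, adjusted p = 0.0376). The count changed with the setting, and the share over all genes is given for the main setting only. DESeq2 called 22, clone cells of T-like and B-like clusters alone gave 24, leaving out mouse 29 gave 13, leaving out mouse 30 or mouse 32 gave 0, and leaving out mouse 27, 31, 33 or 34 gave 1 each. The groups did not overlap for 22 genes lower in T clones, against 9.95% of all genes, and for 1 gene higher, Gins1, against 22.9% of all genes. Of the genes followed in every population, Mcm5, Clspn, Pcna, Rrm2, E2f1 and Slbp had log2 fold changes of -1.57, -2.01, -0.90, -1.65, -1.32 and -0.55 and did not pass. Lineage and receptor go together here and cannot be told apart, and site is spread too thinly over the mice to be separated.

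In erythroid-like cells against bystander T cells, in mice 29 and 32, 5 of the 38 genes rose and 0 fell in edgeR, where 3.75% of all genes were called higher, 9.77% lower and 13.5% in either direction. At an unadjusted p under 0.05 there were 22, for which no share over all genes is given. The fit had 1 residual degree of freedom, so its p-values rest on a spread borrowed from other genes and hardly on that between the 2 mice. The erythroid-like cells of mouse 29 held so few UMIs that 10 of the 38 genes were at 0, which allows up to 16.0 CPM each (3 counts). Rrm2 was at 21.4 CPM (4 UMIs) in mouse 29 and 165 CPM in mouse 32, against 10.6 and 10.1 CPM in bystander T cells (3.04 ± 0.796, adjusted p = 0.00215). E2f8 was at 16.0 CPM (3 UMIs) and 68.4 CPM against 3.45 and 5.07 CPM (3.39 ± 0.993, adjusted p = 0.00752), and Cdc6 at 5.35 CPM (1 UMI) and 66.4 CPM against 2.30 and 6.19 CPM (2.96 ± 1.08, adjusted p = 0.0467). The rise therefore rests on the 3812 cells of mouse 32. Rrm1 (48.1 and 363 CPM against 40.3 and 51.2 CPM) and Mcm3 (37.4 and 167 CPM against 16.0 and 38.8 CPM) also passed. The call was lost (0 genes) without TMM factors, without the mouse as a block and without the filter on low counts.

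The summed level was highest in mouse 32. Its erythroid-like cells had Pcna at 305 CPM, Dut at 369 CPM, Mcm7 at 99.4 CPM and Clspn at 92.9 CPM, with Slbp at 198 CPM, Mcm5 at 60.1 CPM and E2f1 at 17.2 CPM. In mouse 29 the same cells had Pcna at 42.8 CPM, Slbp at 64.2 CPM, and Clspn and E2f1 at 5.35 CPM (1 UMI each). The 2 nodules also differed in erythroid markers, which summed to 338998 CPM in mouse 29, largely globins, and to 12658 CPM in mouse 32. Within mouse 32 the S-phase share was 54.2% in cells with under 0.1% globin UMIs, 82.2% from 0.1% to 1%, 82.4% from 1% to 10% and 20.4% (10 of 49 scored cells) at 10% or more. The share was thus highest at a middle level of globin and lowest in the cells richest in it. The 2 erythroid-like clusters of this mouse had 54.7% and 78.9%.

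Genes around the list were counted for comparison with the 38. Over all 14510 genes tested between B clones and bystander T cells, 15.7% were called higher and 17.1% lower. Of 40 other replication genes 18 rose in B clones against bystander T cells and 0 fell, with a median log2 fold change of 0.89. They included Cdca7 (2.33 ± 0.353, adjusted p = 0.00203, edgeR) and the origin kinase Cdc7 (1.45 ± 0.236, adjusted p = 0.00276). Of 20 G2 and mitosis genes 16 rose and 0 fell, with a median of 1.55. Mki67, the proliferation marker, had 1.82 ± 0.357 (adjusted p = 0.00648). Regulators of entry went both ways, in numbers close to the shares over all genes. Of 18, the growth regulator Myc and the kinases Cdk2 and Cdk4 rose, and Rbl2 and Rb1, which hold back E2F factors, the kinase inhibitor Cdkn1b and the cyclin Ccnd3 fell. Rbl2 was at 39.0 ± 14.6 CPM (SD, n = 5) in clones and 211 ± 76.5 CPM (SD, n = 5) in bystander T cells (-2.31 ± 0.234, adjusted p = 0.000313). It was the gene of these lists whose clone effect differed between TCR and BCR nodules (difference 2.43 ± 0.426, adjusted p = 0.0306), with 309 and 107 CPM in the T clones and 227 and 108 CPM in their bystander T cells.

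In T clones all 20 G2 and mitosis genes had a log2 fold change above 0 and 0 passed in edgeR (3 at an unadjusted p under 0.05), where 8509 of all 14510 genes were above 0. Without mouse 32 it was 11 of the 20, and with clone cells of T-like clusters alone 13. The summed level of these genes was 1.04 times that of bystander T cells in mouse 30 and 3.44 times in mouse 32. In T clones against B clones Ccnd3 was higher (2.31 ± 0.269, adjusted p = 0.00757), and Orc6, Cdca7 and Bub1 were among those lower. In erythroid-like cells 13 of 18 tested G2 and mitosis genes rose, led by the ubiquitin-conjugating enzyme Ube2c (4.47 ± 0.723), along with 4 of 39 other replication genes, where 3.75% of all genes rose and 13.5% were called in either direction. E2f2 also rose (3.62 ± 0.943, adjusted p = 0.00206). Cdkn1b and Ccnd3 fell (-1.99 ± 0.642 and -1.73 ± 0.588).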

How the data were processed

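For each of 7 RNA libraries the authors deposited UMI counts by gene and cell, not normalized for depth, and the V(D)J files list receptor contigs with the clonotype of each cell. The authors' processing notes name GRCm38 and mm10, and the aligner of the RNA counts is not given in the sources used here. Cells with at least 201 UMIs, 101 genes and at most 10% mitochondrial UMIs were kept (75503 of 77442). They were clustered in scanpy 1.11.5 (2000 variable genes without the S-phase and the G2 and mitosis lists, 30 components, 15 neighbors, resolution 1.0) and a cluster was named when at least 3 listed markers were present, unless its leading genes belonged to another class or it had few UMIs and no marker among its leading genes. By these exceptions 3 clusters with B markers (11, 18 and 28) and 1 with neutrophil markers (17) stayed unnamed. A first rule left 2 T clusters, 1 of them cycling, and 1 B cluster unnamed and was loosened after this was seen. Names are rebuilt here and were not taken from the study. No doublet caller was run, and cells with at least 2 UMIs of both B and T markers were left out as an alternative.

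UMIs were summed per mouse and population and tested with edgeR 4.0.16 in R 4.3.3 (TMM, low-count filter, quasi-likelihood). One fit of 14 sums with the mouse as a block gave both clone effects and their difference, 7 clone sums gave T against B clones, and 4 sums the erythroid comparison. DESeq2 1.42.0 was an alternative, and the tests were run on simulated counts. These had a fixed spread and no differences between mice, so they do not show how the fits with the mouse as a block behave here. The edgeR test gives no SE. Each SE printed with an edgeR fold change is the size of that log2 fold change divided by the square root of the F statistic. The mouse pairs clone and bystander cells because they come from 1 sample and library. Deviations of the same mouse correlated at 0.289 to 0.412, and those of different mice at -0.22 to 0.0843. With 1 sample per mouse, p-values measure the spread between these samples.

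The 38 genes and all other lists were chosen with earlier results of these data known. Genes are named with values when they passed an adjusted p of 0.05 (up to 10 per fit by smallest p), had 1 of the 2 smallest p in their role or 1 of the 3 largest or smallest fold changes in the clone fits, and Mcm5, Pcna, Rrm2, Clspn, Slbp and E2f1 in every population. Other genes named were chosen after their values were seen. No p is given for sums or shares over the list.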

Additional observations from a re-analysis of the deposited data

Results flagged for a closer look

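Of 80 sets of 5 values (38 genes, the S-phase share and the summed level, in B clones and in bystander T cells of BCR nodules), 4 had 1 mouse far from the other 4, by a gap of more than 0.71 of the whole range. Chance gives this in about 1 in 20 sets, which is as many as were seen. All 4 were in B clones.

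Mcm7, a subunit of the helicase ring, was low in mouse 33 at 34.9 CPM, where the other clones had 53.1 to 58.0 CPM. Uhrf1 was high in mouse 27 at 69.8 CPM, where the others had 41.4 to 46.9 CPM. In mouse 31, 2 genes stood out, Dut at 295 CPM (others 125 to 165) and Ccne1 at 39.5 CPM (others 9.08 to 17.0). Ccne1 was also highest in mouse 31 among the bystander T cells, at 35.7 CPM.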

How the results depend on the processing

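Most values kept their direction and their side of the threshold. Counts of genes at other settings are printed without the share over all genes there. They show how the count depends on the setting and are not results about the list. In B clones against bystander T cells, 17 of the 38 genes passed without the replicate block, and leaving out 1 mouse at a time gave 19 to 27 (19 without mouse 27). Other settings gave 20 (all B-like cells) to 32 (first naming rule). The looser rule behind the main results was chosen after seeing what the first rule left unnamed. Ccne1 reversed to a log2 fold change of 0.15 in cells thinned to 1000 UMIs and 0.0014 under the first naming rule, and Slbp ranged from -0.0058 (without mouse 31) to 0.38 (without mouse 29).

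In T clones against bystander T cells, DESeq2 called 1 gene, and leaving out 1 mouse gave 0 to 0. Without mouse 32 and without mouse 30, Clspn was -0.032 and 1.71, Mcm5 -0.053 and 1.76, Rrm2 -0.78 and 2.03, Orc1 -1.45 and 0.10, and Pold1 -1.35 and 0.33. Rrm2 was -0.17 with clone cells of T-like clusters. In thinned cells E2f1 was -1.08 and Pold1 0.017. The difference between TCR and BCR nodules had 1 call in thinned cells (Hells) and 1 with DESeq2, and 0 to 0 with 1 mouse left out. Without mouse 32 and without mouse 30, Clspn was -1.67 and 0.16, Mcm5 -1.58 and 0.32, and Rrm2 -2.21 and 0.69. T against B clones gave 14 in thinned cells, 24 with T-like and B-like clusters only, 22 with DESeq2, and 0 to 13 with 1 mouse left out. Without the replicate block, Clspn, E2f1, Mcm5, Rrm1 and Rrm2 lost their calls in B clones, all 5 genes lost theirs in the erythroid comparison, and no other named gene changed its call.

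The erythroid comparison gave 3 genes in thinned cells, 3 with DESeq2, 1 with erythroid cells chosen by markers, and 0 without TMM, without the low-count filter and without the replicate block. Pcna reversed to -0.043 in thinned cells and -0.063 without TMM, and Slbp to 0.066 without the filter. Leaving out mouse 29 or 32 could not be fitted. The cause of these changes was not tested.

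Mean S-phase shares at a limit of 2 UMIs were 46.6% (B clones), 22.3% (T clones), 24.1% and 19.8% (bystander T cells of BCR and TCR nodules). At 4 UMIs they were 21.9%, 3.53%, 4.54% and 2.27%. Without thinning they were 3.15%, 5.66% and 2.70% in the last 3 populations, and at 2000 UMIs and 5 member UMIs the last was 6.03%. Without Pcna, Tyms, Rrm2 and Slbp they were 4.83%, 5.27% and 3.20% in the last 3 populations. The T clone level was 995 CPM in T-like clusters. With 1 mouse left out, mean shares ranged from 29.6% to 34.5%, 6.64% to 9.86%, 8.36% to 10.2% and 6.43% to 8.24%, and from 2.82% to 59.6% in erythroid-like cells. Mean levels ranged from 2274 to 2584, 1103 to 1430, 1361 to 1588, 908 to 1273 and 567 to 3998 CPM in the same order.

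Dropping TMM moved the median of all genes by -0.109 in B clones, 0.274 in T against B clones, 0.207 in the difference and -0.285 in the erythroid comparison. Among called genes the share that was higher was 69.5% in T against B clones, 83.9% without TMM and 50.1% with DESeq2. In the erythroid comparison it was 27.8% and 17.4% without TMM.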
